A study of Mus musculus with 2 samples.

Results

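The cells described here were cancer cells of a mouse mammary tumour that were neither cycling nor positive for trefoil factors and that carried Sprr1a or Cyp1a1 transcripts. They came from the primary tumour library of a single-cell RNA sequencing experiment on tumours of EO771-HEVM3, a derivative of the EO771 mouse breast cancer line that had been recovered repeatedly from lung metastases to enrich cells that leave lymph nodes through high endothelial venules. Tumours and paired lymph nodes of 6 female C57BL/6J mice, with no other allele or treatment named in the labels, were each pooled into 1 library. The primary tumour library held 12427 cells and the lymph node library 11617, so that the whole series comprised 24044 cells.

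The members were chosen by their measured unique molecular identifiers (UMIs, 1 per captured transcript). A first gate kept cells with over 200 detected genes, at most 5% mitochondrial UMIs, and at least 5 UMIs and 500 counts per 1000000 UMIs (CPM) of Krt8 and Krt18 together. The gate also limited leukocyte (Ptprc), endothelial (Pecam1, Cdh5) and collagen (Col1a1, Col3a1) transcripts, and required fewer than 5 UMIs of the cycle genes Mki67, Top2a and Cenpf and fewer than 3 of the trefoil factor genes Tff1 and Tff2. It left 3431 of 12427 cells. Of these, 855 had at least 3 UMIs of Sprr1a and Cyp1a1 together and were the members, which was 24.9% of gated cells (95% exact Clopper-Pearson interval 23.5 to 26.4). A further 661 cells had 1 or 2 such UMIs, and the 1915 cells with 0 served as the comparison group. With 1 library per tissue there was no replicate, so no test was possible. The intervals given below are exact counting intervals at 95% and cover counting error only. No file assigned cells to mice.

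Sprr1a encodes a small proline-rich protein, a precursor that transglutaminases cross-link into the cornified envelope of stratified epithelia, and it is also induced in injured and stressed tissue. Cyp1a1 encodes a cytochrome P450 that oxidises aromatic hydrocarbons. It is the best known target of the aryl hydrocarbon receptor (AhR), a ligand-activated factor that pairs with ARNT and binds DNA at a core of GCGTG. The AP-1 factors of the Fos and Jun families, which bind TGANTCA, are known regulators of the small proline-rich genes.

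The sequences before the start sites of the 2 selecting genes and of Sprr1b, the nearest relative of Sprr1a, are shown because these letters differ between them. Each holds the 250 bases before the RefSeq start (GRCm38.p6), 5′ to 3′ on the gene's strand, with GCGTG of Cyp1a1 or TGANTCA of the Sprr1 genes, searched on both strands, in capitals.
Cyp1a1: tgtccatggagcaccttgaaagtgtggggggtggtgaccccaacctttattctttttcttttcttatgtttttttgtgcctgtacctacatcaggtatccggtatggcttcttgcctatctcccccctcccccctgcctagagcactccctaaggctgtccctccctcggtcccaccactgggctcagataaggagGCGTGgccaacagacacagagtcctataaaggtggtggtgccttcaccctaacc
Sprr1a: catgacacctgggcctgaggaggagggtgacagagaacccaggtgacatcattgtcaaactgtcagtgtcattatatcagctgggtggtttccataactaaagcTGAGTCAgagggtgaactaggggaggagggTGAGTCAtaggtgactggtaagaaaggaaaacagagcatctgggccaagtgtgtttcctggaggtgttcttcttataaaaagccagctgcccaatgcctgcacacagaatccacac
Sprr1b: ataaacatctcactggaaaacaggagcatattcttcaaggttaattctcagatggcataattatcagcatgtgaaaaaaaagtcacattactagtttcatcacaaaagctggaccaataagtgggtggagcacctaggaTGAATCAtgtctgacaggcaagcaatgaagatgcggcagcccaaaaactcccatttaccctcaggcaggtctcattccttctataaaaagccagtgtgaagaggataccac
The Cyp1a1 stretch lies at chr9:57697363-57697612 on the plus strand and held GCGTG once, from 54 to 50 bases before the start. The Sprr1a stretch, at chr3:92485882-92486131 on the minus strand, held TGANTCA at 146 to 140 and at 116 to 110 bases before the start. The Sprr1b stretch, at chr3:92438780-92439029 on the minus strand, held it once, at 111 to 105 bases. Among all 32851 RefSeq windows of this length, 28.2% held GCGTG and 6.75% held TGANTCA. Neither motif overlaps the other, and a match is a description of letters only. In the GENCODE M21 annotation of GRCm38, Sprr1a spans chr3:92483952-92485895 and Cyp1a1 chr9:57687928-57703824. These outer starts differ from the RefSeq starts used here. The Cyp1a1 stretch lies inside its annotated span, and the Sprr1a stretch partly overlaps its own.

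Sprr1a made up most of the selection. Members held 11975 Sprr1a UMIs, 716 CPM of their 16725258 UMIs (703 to 729), and 93.2% of them had at least 1. Cyp1a1 had 2258 UMIs, 135 CPM (129 to 141), in 24.6% of members. The highest single cell held 361 UMIs of Sprr1a and the highest 74 of Cyp1a1, and the median member had 9 UMIs of the pair. By design, the comparison cells had none.

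The pair was unevenly shared among members. Of the 855, 645 had at least 3 Sprr1a UMIs and none of Cyp1a1 and are called Sprr1a-bearing below. A smaller group of 58 had at least 3 Cyp1a1 UMIs and none of Sprr1a and are called Cyp1a1-bearing. At least 3 UMIs of each were present in 63 double-positive cells, and the remaining 89 held both genes with at most 2 UMIs of one or each. Among gated cells with at least 10000 UMIs, 40.5% of 148 cells with at least 3 Cyp1a1 UMIs also had at least 3 Sprr1a UMIs (32.6 to 48.9), compared with 31.1% of 1564 cells without a Cyp1a1 UMI (28.8 to 33.4). The median depths were 22036.5 and 15699 UMIs, so depth moved with this difference and its part was not tested.

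**Figure D1:**
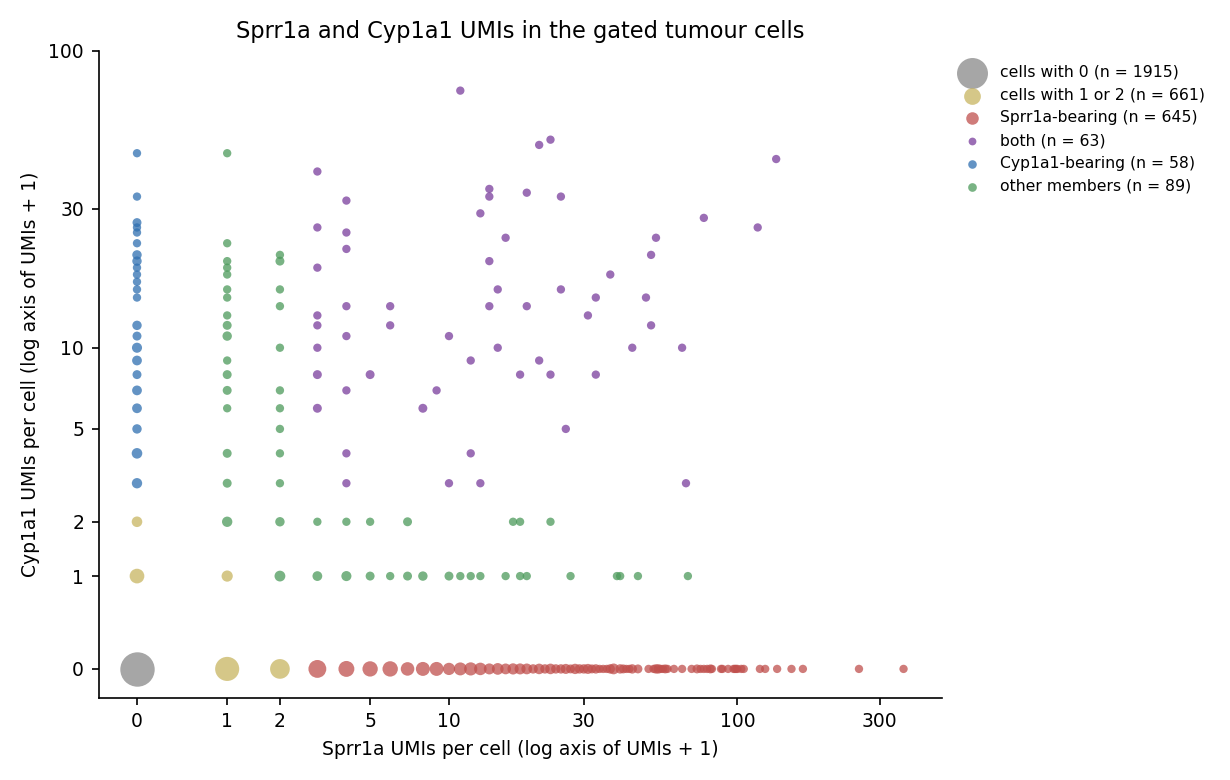
Sprr1a UMIs (x axis) and Cyp1a1 UMIs (y axis) of each gated tumour cell, both on a log axis of UMIs + 1. The size of a point grows with the number of cells at that position and colours mark the groups. The 645 Sprr1a-bearing cells lie along the bottom and the 58 Cyp1a1-bearing cells along the left edge.

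Depth differed between the groups. A minimum of 3 UMIs can favour deeply sampled cells, and its part in this difference was not tested. Members had a median of 17225 UMIs and 4016 genes per cell, cells with 1 or 2 a median of 10985 UMIs and 3057 genes, and cells with 0 a median of 8598 UMIs and 2446 genes. Each ratio below is therefore given between CPM of summed UMIs, and, where named, again after the comparison cells were weighted to the depths of the members in 10 bins. The highest of these bins held only 17 comparison cells. The median log2 ratio over all genes was 0.21, and 0.23 after weighting, so a ratio near these values is the level of the typical gene. At the edge of the threshold, the 132 members with exactly 3 UMIs and the 192 cells with exactly 2 had near-equal median depths of 12452.5 and 12433 UMIs. They were also close in Krt7 (666 and 694 CPM), Aldh1a1 (304 and 301) and Ccl2 (70.8 and 64.6). Aldh3a1 was at 5.81 and 3.97 CPM, and at 3.75 in the 81 members with exactly 4 UMIs.

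The cells matched their label as cancer cells of this line, with limits. Krt8 and Krt18, used by the gate, were abundant, and Krt19 was present at 324 CPM and Epcam, the epithelial adhesion molecule, at 72.2. Cdh1 had only 5 UMIs and Cldn7 only 1 in all members, and these junction genes were near 0 in the comparison cells too, with 7 and 0 UMIs. Of 8 markers of normal mammary epithelium, 5 were at 0 in members, among them the milk genes Csn2, Wap and Lalba and the basal factor Trp63. Keratinocyte markers were mixed, with Krt14 at 308 CPM but Krt1, Lor and Col17a1 at 0.

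Transcripts of leukocytes were few, whereas the fibroblast marker Dcn was abundant. All 7 macrophage markers were detected, yet they summed to 43.3 CPM in members and 56.6 in cells with 0, with a per-cell median of 0 in both groups. The 5 T cell markers summed to 17.3 and 18.6 CPM and the 5 neutrophil markers to 22.1 and 63.5, again with medians of 0. The endothelial markers Kdr and Cldn5 had no UMI in members, although Egfl7 was higher in them (94 against 29 UMIs). Of the fibroblast markers, Pdgfrb was at 0 and Col1a2 had 10 UMIs, whereas Dcn had 18635 and a log2 ratio of 0.60. With Dcn, the 6 fibroblast markers summed to 1120.3 CPM in members and 744 in cells with 0, with per-cell medians of 1038 and 593. Haemoglobin transcripts summed to 248 and 166 CPM, with single members holding 32.8 to 40.7% of each gene's UMIs. Their part in the results below was not tested.

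Both remaining marker genes of the rule's label, which did not enter the selection, were higher in members. Aldh1a1, a retinal and aldehyde dehydrogenase located at chr19:20492715-20643465, had 6225 UMIs in members, 372 CPM (363 to 382), and 3423 UMIs, 179 CPM (173 to 185), in cells with 0. The log2 ratio was 1.06 (1.00 to 1.12) and 0.96 after depth weighting, just below 2-fold. A UMI was present in 85.1% of members and 56.5% of cells with 0. After every cell was thinned to 2000 UMIs, which left out 4 members and 72 comparison cells, these shares were 44.1 and 24.6%. Krt7, a keratin of simple and ductal epithelia at chr15:101411043-101430313, was at 820 CPM (806 to 834) in members and 558 (548 to 569) in cells with 0. Its log2 ratio was 0.55 (0.52 to 0.59), short of 2-fold, and thinned shares were 69.4 and 60.1%. Cells with 1 or 2 UMIs of the pair lay between for Aldh1a1 (254 CPM) and Krt7 (657). In Sprr1a-bearing members Aldh1a1 was at 311 CPM (302 to 322), under 2-fold over cells with 0. It was at 485 CPM in Cyp1a1-bearing and 610 in double-positive cells.

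Of 9617 other genes with at least 100 UMIs in both groups together, 358 were at least 2-fold higher in members, which is 3.72%, and 59 were at least 2-fold lower, which is 0.613%. When ratios were centred on the median gene, the counts became 153 and 138, so the excess of higher genes depended on this shift of all genes. The 12 genes with the highest ratios, among those detected in at least 10% of members with no cell over 10% of the UMIs and past 2-fold also after weighting, were Rasgrp3, Greb1, Aldh3a1, Htra1, Adh7, Nrp1, Mvk, Rasl10b, Ccl2, Cdkn3, Gsta4 and Slfn9. Most of them were low-abundance transcripts.

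Rasgrp3, an activator of Ras GTPases, had the highest ratio, with 207 UMIs (12.4 CPM) in members and 24 UMIs (1.25 CPM) in cells with 0, a log2 ratio of 3.28 (2.69 to 3.98). It had a UMI in 15.8% of members and 0.992% of comparison cells. Greb1, known as an oestrogen-regulated gene, reached 8.97 and 1.46 CPM, a log2 ratio of 2.60 (2.03 to 3.26). Nrp1, a co-receptor for semaphorins and VEGF, reached 16.3 and 3.44 CPM and a log2 ratio of 2.23 (1.85 to 2.65) that became 1.60 after depth weighting. Htra1, a secreted serine protease, followed at 10.6 and 2.09 CPM. Mvk, mevalonate kinase of sterol synthesis, and Cdkn3, a cell cycle phosphatase, had log2 ratios of 2.15 and 2.06, which became 1.53 and 1.83 after depth weighting.

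Ccl2, the chemokine that attracts monocytes, was the most abundant of these genes. Its 3407 UMIs gave 204 CPM in members (197 to 211), beside 47.1 in cells with 0 (44.0 to 50.2), a log2 ratio of 2.11 (2.01 to 2.22) and 1.73 after weighting. It was unevenly distributed among members. Only 39.5% of them had a Ccl2 UMI, and the highest cell held 152. In other cells of the same library Ccl2 was at 612 CPM in leukocytes, 968 in fibroblasts and 299.8 in cycling cancer cells, and the part of transcripts from other cells in its level among members was not tested.

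Only 4 genes met the rule for lower transcripts. Bnip3, a mitophagy receptor induced by low oxygen, was at 82.1 CPM in members and 193 in cells with 0, a log2 ratio of -1.24 (-1.33 to -1.15). Creb5, a transcription factor, was at 38.1 and 90.0 CPM, a log2 ratio of -1.24. Cotl1, an actin-binding protein, and the uncharacterised transcript 4930523C07Rik had log2 ratios of -1.38 and -1.06. All 4 stayed past 2-fold after depth weighting, which the rule required, with values of -1.02 to -1.09. In the Sprr1a-bearing members alone, described below, 3 of them were under 2-fold, Creb5 at -0.94, Bnip3 at -0.89 and 4930523C07Rik at -0.72.

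Xenobiotic genes are described first, since Cyp1a1 is one of them. Of 10 listed AhR targets besides Cyp1a1, 3 had enough UMIs, and 2 of these were at least 2-fold higher in members, beside 3.72% of all genes. Aldh3a1, an aldehyde dehydrogenase, was at 9.63 CPM in members and 1.72 in cells with 0, a log2 ratio of 2.47 (1.94 to 3.07). Nqo1, a quinone reductase, was at 10.8 and 5.01 CPM, with a log2 ratio of 1.10 (0.74 to 1.48) that weighting brought to 0.74. Tiparp, a feedback repressor of AhR, had a log2 ratio of -0.01 with an interval that included 0 (-0.11 to 0.09). Cyp1b1 had 20 and 17 UMIs, below the minimum. Ahr itself was at 64.5 and 60.1 CPM (log2 ratio 0.10) and its partner Arnt at 24.6 and 35.3 (-0.52). In Sprr1a-bearing members alone, Nqo1 was at 6.44 CPM, under 2-fold over cells with 0. Of the 3 targets only Aldh3a1, at 1.91, was 2-fold higher there, beside 1.88% of all genes.

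Of the 15 genes of the NRF2 antioxidant list, 1 was at least 2-fold higher, beside 3.72% of all genes. This was Gsta4, a glutathione transferase that detoxifies lipid aldehydes, with 18.9 and 4.70 CPM and a log2 ratio of 2.00 (1.67 to 2.36). The list's median log2 ratio was 0.33, close to the 0.21 of all genes. G6pdx, which supplies NADPH, stood at 0.95, thioredoxin (Txn1) at 0.83 and Nfe2l2, which encodes NRF2 itself, at 0.79, all under 2-fold, whereas Slc7a11, the cystine transporter, stood at -0.65. Adh7, an alcohol dehydrogenase active on retinol, had 371 UMIs (22.2 CPM) in members and 85 (4.43 CPM) in cells with 0, a log2 ratio of 2.32 (1.98 to 2.68). Of 10 measured genes of retinoid metabolism, Aldh1a1 alone, a marker of the label, was at least 2-fold higher, beside the same 3.72%, and the median was 0.23. In Sprr1a-bearing members none of the 10 was 2-fold higher than in cells with 0, beside 1.88% of all genes.

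Interferon-response genes showed the highest median of the larger lists. Of 15 measured genes, 7 were at least 2-fold higher, beside 3.72% of all genes, and none was 2-fold lower, with a median log2 ratio of 0.97 that became 0.67 after depth weighting. Isg15, a ubiquitin-like modifier, was at 45.2 and 15.96 CPM, with an interval of the log2 ratio from 1.31 to 1.70. Zbp1, a sensor of nucleic acids, was at 206 and 95.3 CPM (1.11). The guanylate-binding gene Gbp2 stood at 1.02 and the chemokine genes Cxcl9 and Cxcl10 at 1.04 and 1.08. After depth weighting the Zbp1 ratio was 0.67 and that of Gbp2 0.76, so that both were under 2-fold, and Isg15 was still at 1.23. Irf1 and Gbp3 had ratios of -0.02, and Rsad2 stood at -0.32.

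Of 9 MHC class I genes, none was 2-fold higher and 1 was 2-fold lower, beside 3.72 and 0.613% of all genes. The other 8 were above 0, with H2-D1 at 0.11 and B2m at 0.10. The list median was 0.31, or 0.36 after weighting, beside 0.21 and 0.23 for all genes. H2-K1, which encodes a classical class I heavy chain, was the lower gene, at 6.64 and 17.0 CPM, a log2 ratio of -1.35 (-1.68 to -1.04), but had only 111 UMIs in members. Among 10 p53 targets, Bax, a pro-apoptotic gene, was 2-fold higher at 1.05, beside 3.72% of all genes, and the median was 0.51. Bax stood at 0.87 in Sprr1a-bearing members. Of 12 measured chemokine and cytokine genes, Ccl2, Csf1 (1.15) and Il18 (1.06) were at least 2-fold higher, beside 3.72% of all genes, and none was 2-fold lower, beside 0.613%. Of the 11 measured in Sprr1a-bearing members, Ccl2 alone was 2-fold higher than in cells with 0, beside 1.88% of all genes.

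Cornified-envelope genes were not higher as a block in members. Of 12 measured genes of that list, 1 was at least 2-fold higher, beside 3.72% of all genes, and none was 2-fold lower, beside 0.613%. The higher gene was Sbsn (suprabasin), at 50.8 and 17.1 CPM and a log2 ratio of 1.57 (1.38 to 1.76). Tgm1, a cross-linking transglutaminase, stood at 0.98, Cstb, a protease inhibitor, at 0.83 and Slurp1 at 0.82. Klf4, a differentiation factor, stood at -0.34 and the epithelial 14-3-3 gene Sfn at -0.62. The other small proline-rich genes were scarce. Sprr1b had 44 UMIs in members and 1 in cells with 0, a 50.4-fold ratio (8.59 to 2036), of which 1 cell held 27.3%. Sprr2g had 50 and 3 UMIs (19.1-fold, 6.17 to 95.7) and Sprr2a3 35 and 11. Of the 15 relatives of Sprr1a, 10 had no UMI in either group.

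Keratins differed in both directions, and no measured desmosome gene reached 2-fold. Among stratified keratins, Krt6a was at 43.8 and 24.5 CPM (log2 ratio 0.84), Krt14 at 308 and 247 (0.32) and Krt17, with 37 and 110 UMIs, at -1.36. Of 7 measured desmosome genes, 6 had ratios below 0, with a median of -0.20 beside 0.21 for all genes. Epcam was at 72.2 and 113 CPM, a log2 ratio of -0.64. Of 7 measured genes of the mucin, claudin and secreted list, with a median of -0.06, Slpi alone was 2-fold higher, beside 3.72% of all genes. It is a secreted leukocyte protease inhibitor and was at 87.2 and 27.7 CPM (1.65). Of 9 genes of the epithelial-mesenchymal transition list, with a median of 0.02, Sparc, a matrix glycoprotein, was 2-fold higher at 189 and 73.0 CPM (1.37) and Tgfbi, a matrix adhesion protein, 2-fold lower (-1.08), beside 3.72 and 0.613% of all genes. Sema3c, the semaphorin at the centre of the study, was at 154 and 89.9 CPM (0.78). Of the 6 measured genes of its list, none was 2-fold higher or lower, beside 3.72 and 0.613% of all genes. Their median was 0.21, as over all genes, and 2 lay below 0.

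Among hypoxia and immediate early genes, Bnip3, Ankrd37, Ndrg1 and Fosb were at least 2-fold lower in members and most others had smaller ratios below 0. Of 13 measured hypoxia and glycolysis genes, 3 were at least 2-fold lower, Bnip3, Ankrd37 (-1.10) and Ndrg1 (-1.06), beside 0.613% of all genes, and none was 2-fold higher. Vegfa, the angiogenic growth factor, was at 80.9 and 156 CPM, a log2 ratio of -0.95. The median was -0.39, and -0.29 after weighting. In the Sprr1a-bearing members alone none of the 13 was 2-fold lower and the median was -0.20, whereas 7 were 2-fold lower in Cyp1a1-bearing members, beside 0.395 and 5.31% of all genes. Among 12 AP-1 and immediate early genes, 11 were below 0 and 1 was 2-fold lower, beside 0.613% of all genes. This was Fosb, at 393 and 825 CPM and a log2 ratio of -1.07 (-1.11 to -1.03). The list median was -0.42 and became -0.21 after weighting, beside 0.21 and 0.23 for all genes. In Sprr1a-bearing members none of the 12 was 2-fold lower, with Fosb at -0.70. These genes are known to respond to tissue dissociation as well as to growth signals.

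**Figure D2:**
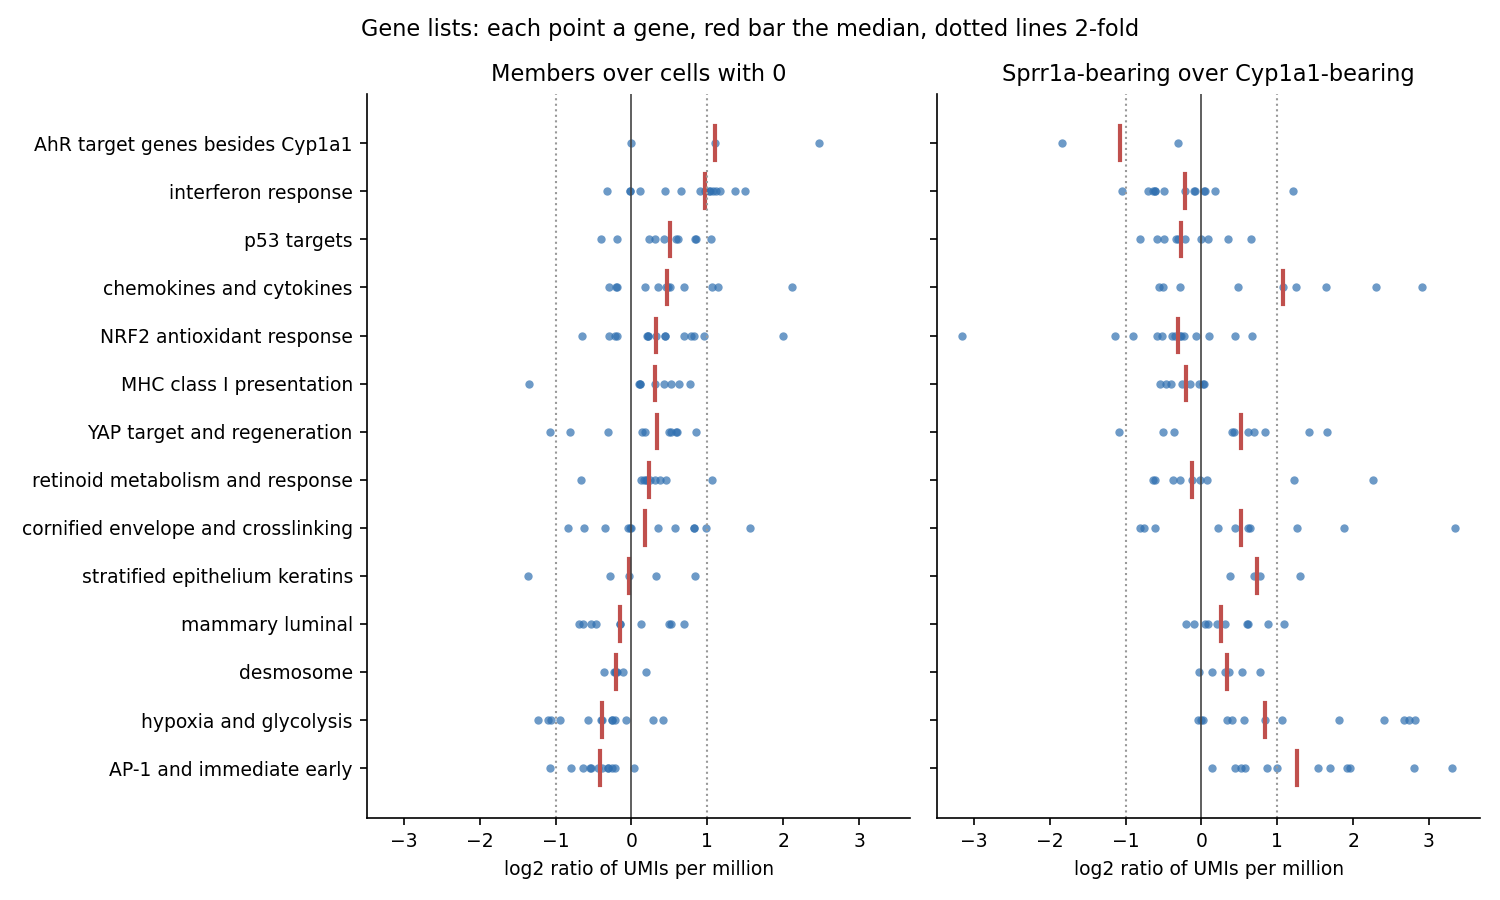
Log2 ratio of CPM (x axis) for each measured gene of 14 lists (rows), for members over cells with 0 at the left and for Sprr1a-bearing over Cyp1a1-bearing members at the right. Red bars are list medians and dotted lines mark 2-fold. The AP-1 and hypoxia lists lie mostly below 0 at the left, with medians of -0.42 and -0.39, and above 0 at the right, with medians of 1.27 and 0.83.

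Levels of several genes differed with the amount of the pair. Gated cells were binned by their summed Sprr1a and Cyp1a1 UMIs into 0, 1 to 2, 3 to 5, 6 to 10, 11 to 30 and over 30. Aldh1a1 was at 179, 254, 296, 347, 390 and 470 CPM in these bins. Each bin was thus above the one before. Isg15 was at 15.96, 25.9, 36.2, 43.2, 42.3 and 62.9 CPM and Aldh3a1 at 1.72, 3.45, 5.88, 5.53, 9.62 and 18.8, both with 1 step down between middle bins. Fosb ran the other way, at 825, 685, 522, 475, 337 and 224 CPM, and Vegfa went from 156 to 48.6. Slurp1, which encodes a secreted regulator of keratinocytes, was also not ordered, at 43.1, 45.4, 79.3, 58.7, 60.3 and 113 CPM. The median depth was also higher along the same bins from 8598 to 28220.5 UMIs, and its part was not tested.

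**Figure D3:**
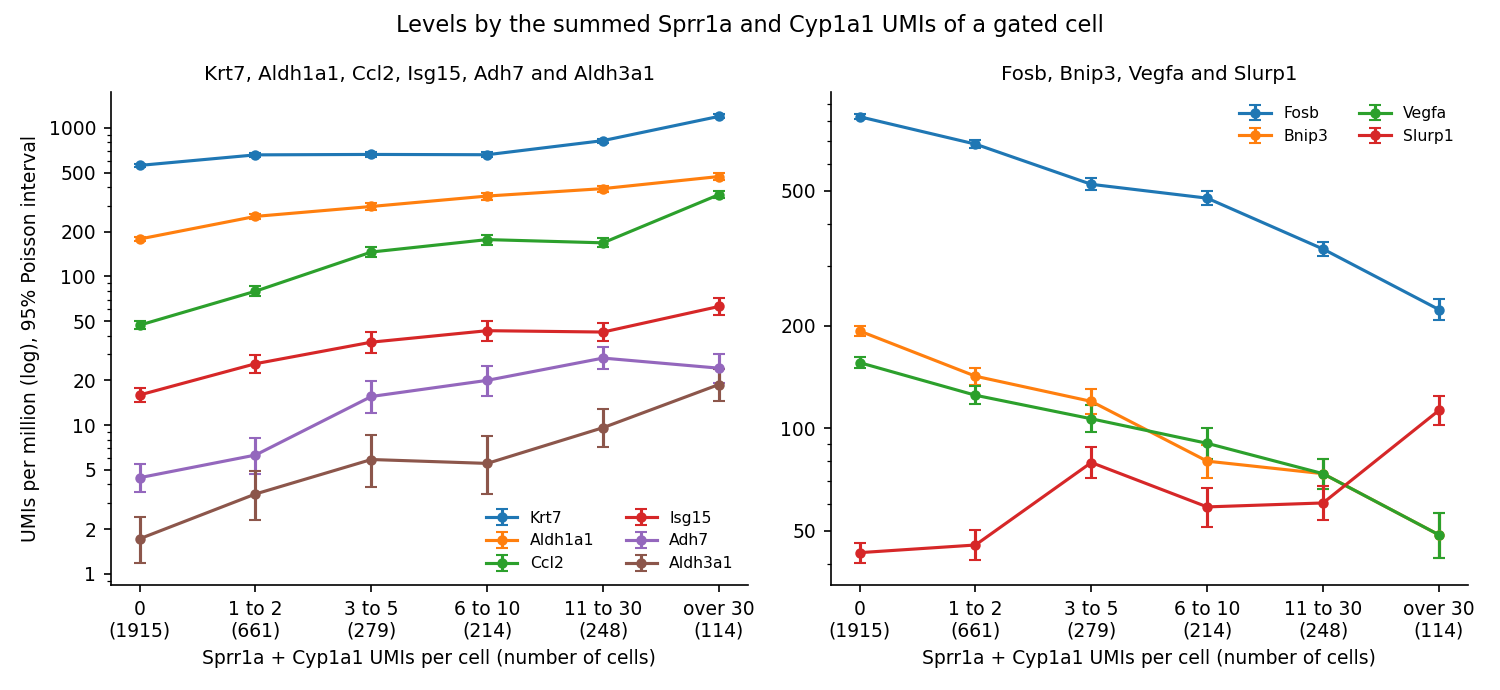
CPM (y axis, log) of 10 genes in gated cells binned by summed Sprr1a and Cyp1a1 UMIs (x axis, with the number of cells in parentheses). Bars are 95% Poisson intervals. Aldh1a1 is higher in each successive bin, from 179 to 470 CPM, and Fosb lower, from 825 to 224.

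The 855 members differed among themselves, and the Sprr1a-bearing majority was compared with the Cyp1a1-bearing cells. Of 7999 genes with at least 100 UMIs in these 2 groups together, 273 (3.41%) were at least 2-fold higher in Sprr1a-bearing cells and 166 (2.08%) at least 2-fold lower, with a median of -0.17 over all genes. The lower count was 84 against all members with at least 3 Cyp1a1 UMIs and 330 without a cell cycle UMI, both chosen after the data were seen. Because 1 cell class was defined by each gene, Sprr1a and Cyp1a1 themselves are left out. The median depths were 15503 UMIs in Sprr1a-bearing and 19093 in Cyp1a1-bearing cells, and the 58 Cyp1a1-bearing cells summed to 1191191 UMIs, which limits the precision of low genes. In the same order, the median mitochondrial shares were 2.90 and 3.50%. The median levels of Krt8 and Krt18 together were 3736 and 2041 CPM. The part of these differences in the contrasts below was not tested.

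Set against the same comparison cells, the Sprr1a-bearing cells had 176 of 9367 genes (1.88%) at least 2-fold higher than cells with 0 and 37 (0.395%) at least 2-fold lower. For Cyp1a1-bearing cells the corresponding counts were 1058 of 8633 genes (12.3%) and 458 (5.31%). The smaller group has the larger counting error, which can add to its counts and whose part was not tested. Both groups share the comparison cells, so no order is read from these counts. Between double-positive and Cyp1a1-bearing cells, 9 of 4211 genes (0.214%) were at least 2-fold higher in the first and 6 (0.142%) at least 2-fold lower. The minimum of 100 UMIs leaves only abundant genes in this pair of small groups, so these counts are not comparable with the others.

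Adh7, Gsta4 and Nqo1 were higher in Cyp1a1-bearing and in double-positive cells than in Sprr1a-bearing cells. Adh7 was at 64.6 CPM (51.0 to 80.8) in Cyp1a1-bearing cells, 60.1 in cells with both genes, 8.55 (6.97 to 10.4) in Sprr1a-bearing cells and 4.43 in cells with 0. The log2 ratio of Sprr1a-bearing over Cyp1a1-bearing cells was -2.92 (-3.36 to -2.47), and 70.7% of Cyp1a1-bearing and 12.6% of Sprr1a-bearing cells had an Adh7 UMI. Gsta4 was at 66.3 CPM in Cyp1a1-bearing, 57.1 in double-positive and 7.45 in Sprr1a-bearing cells, and Nqo1 at 22.7, 24.97 and 6.44. In Sprr1a-bearing cells the log2 ratio over cells with 0 was 0.95 for Adh7 and 0.67 for Gsta4. Without the members that carried Cyp1a1, both were thus under 2-fold.

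Aldh3a1 had another distribution. It was highest in double-positive cells at 30.3 CPM (22.6 to 39.9), where 1 cell held 29.4% of the 51 UMIs, and stood at 10.9 (5.81 to 18.7) in Cyp1a1-bearing and 6.52 (5.15 to 8.15) in Sprr1a-bearing cells. The last 2 intervals overlapped. Nfe2l2 was at 369 CPM in Cyp1a1-bearing, 464 in double-positive and 197 in Sprr1a-bearing cells. Of 14 NRF2-list genes measured in this comparison, 2 were 2-fold lower in Sprr1a-bearing cells, Gsta4 and Gstm1, beside 2.08% of all genes, and the median log2 ratio was -0.31. Cyp1b1, another AhR target, had too few UMIs for a ratio.

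Other genes of the Cyp1a1-bearing cells were Wnt6, a secreted Wnt ligand, at 240 CPM beside 72.5 in Sprr1a-bearing cells (log2 ratio -1.73), and Cp, which encodes the copper carrier ceruloplasmin, at 99.9 and 28.1 (-1.83). Htra1 was at 20.1 and 7.54 (-1.44) and Adap1 at 34.4 and 11.6 (-1.58). Pmm1, Rab20 and Zfp950 completed the 8 named genes, with log2 ratios of -1.53, -1.49 and -1.42. Slpi was at 207 and 56.7 CPM (-1.87).

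The Sprr1a-bearing cells carried far more immediate early transcripts. Of 12 AP-1 and immediate early genes, 7 were at least 2-fold higher than in Cyp1a1-bearing cells, beside 3.41% of all genes, and all 12 were above 0, with a median log2 ratio of 1.27. Fosb was at 507 CPM (494 to 520) in Sprr1a-bearing, 72.2 (57.7 to 89.2) in Cyp1a1-bearing and 825 in cells with 0. Fosl1, which encodes the AP-1 subunit FRA1, was at 61.8 CPM in Sprr1a-bearing and 58.4 in cells with 0, beside 5.88 in Cyp1a1-bearing cells (log2 ratio 3.30, 2.34 to 4.71). Egr1, a growth-induced zinc finger factor, was at 528 and 136 CPM (1.95).

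Hypoxia genes followed the same order. Of 13 measured genes, 6 were at least 2-fold higher in Sprr1a-bearing than in Cyp1a1-bearing cells, beside 3.41% of all genes, and none was 2-fold lower, with a median of 0.83. Vegfa was at 104 CPM (97.9 to 110) in Sprr1a-bearing cells, 14.3 (8.31 to 22.8) in Cyp1a1-bearing cells, 14.9 in double-positive cells and 156 in cells with 0. Bnip3 stood at 105, 19.3, 17.8 and 193 in the same order and Ndrg1, a stress-induced gene, at 315, 47.0 and 54.7 in the first 3 of these groups. The glycolytic genes Eno1 and Hk2 did not share this pattern, with ratios of -0.04 and 0.00.

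**Figure D4:**
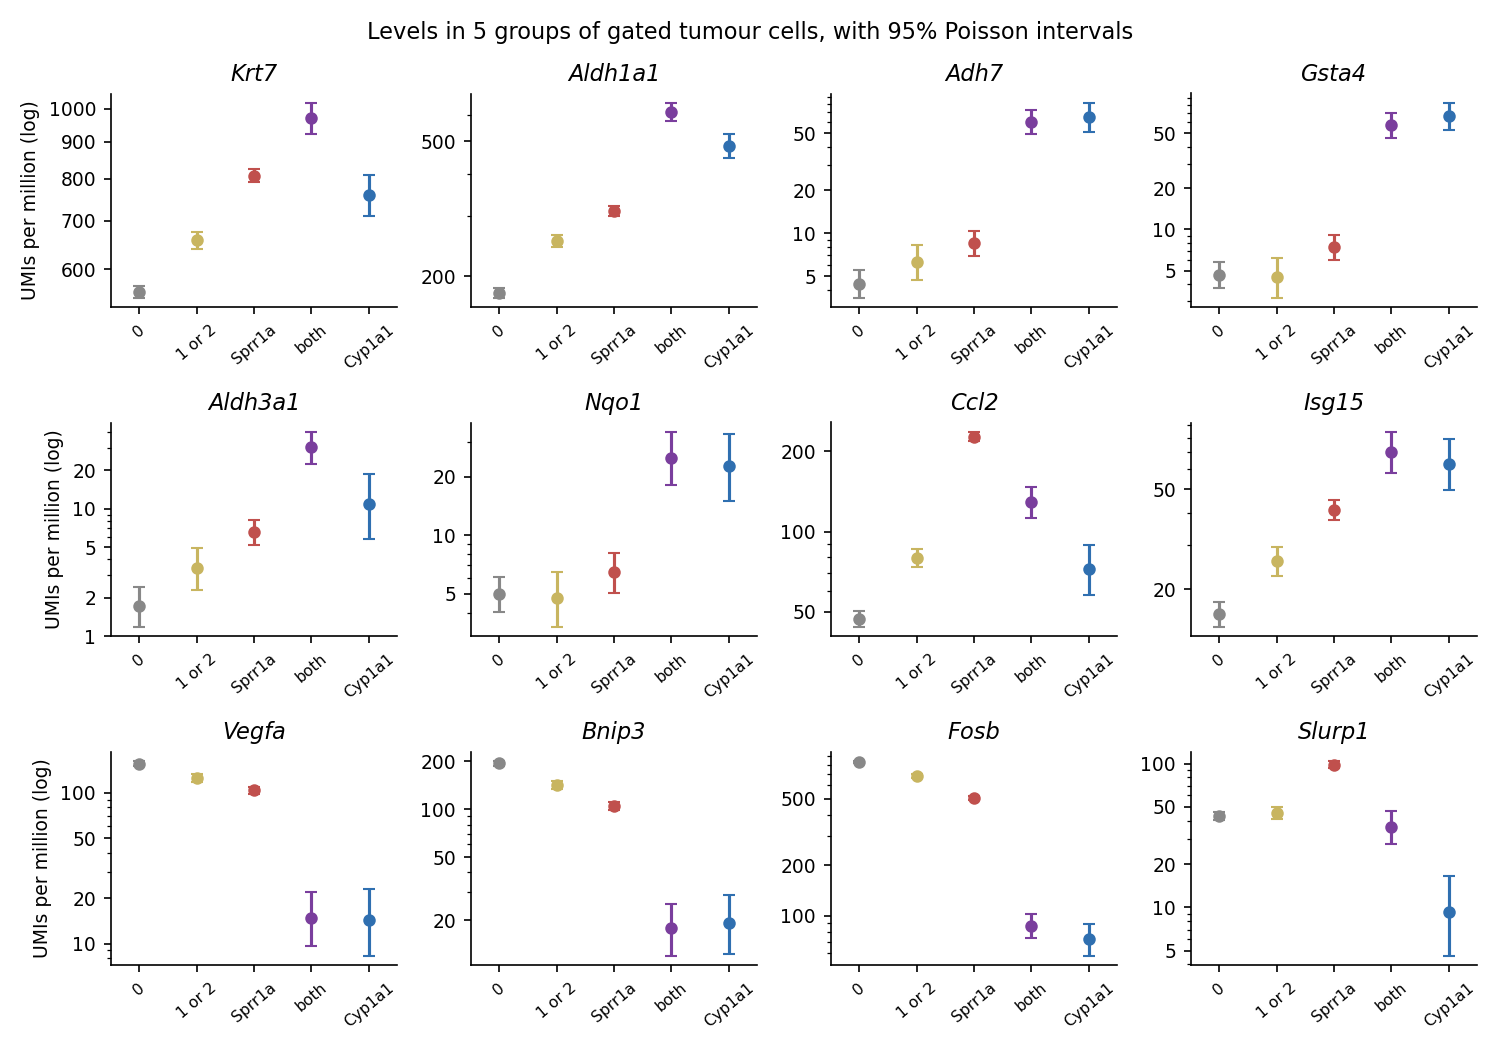
CPM (y axis, log) of 12 genes in cells with 0 or with 1 or 2 UMIs of the pair and in Sprr1a-bearing, double-positive ("both") and Cyp1a1-bearing members, with 95% Poisson intervals. Vegfa, Bnip3 and Fosb are low in the last 2 groups, at 14.9 and 14.3, 17.8 and 19.3, and 87.4 and 72.2 CPM, and Adh7 and Gsta4 are high there.

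The genes with the highest ratios of Sprr1a-bearing over Cyp1a1-bearing cells were of mixed roles. Slurp1 was at 98.0 CPM in Sprr1a-bearing cells and 9.23 in Cyp1a1-bearing cells, a log2 ratio of 3.34 (2.56 to 4.41). Sema7a, a membrane semaphorin, had 126 UMIs (10.7 CPM) in Sprr1a-bearing cells and none in Cyp1a1-bearing cells. With that group set at 3 UMIs this was 4.24-fold higher, and the exact lower limit of the log2 ratio was 1.76. Gdpd3 had 111 and 0 UMIs, 3.73-fold higher in the same way, with a lower limit of 1.58. The lectin-like gene Clec2g had 476 and 2 UMIs (24.0-fold, 6.61 to 199) and Apobec1, a cytidine deaminase, 151 and 1 (15.2-fold, 2.69 to 606). Ccng2, a cyclin of resting cells, was at 28.5 and 2.52 CPM (log2 ratio 3.28, 1.94 to 5.78), and 4930523C07Rik had 423 and 3 UMIs (3.61, 2.27 to 6.11). Ccl2 was at 227 CPM in Sprr1a-bearing, 129 in double-positive and 72.2 in Cyp1a1-bearing cells (log2 ratio of the first over the last 1.64, 1.34 to 1.98). In the double-positive group 1 cell held 40.1% of the Ccl2 UMIs. Krt19 was at 379 and 169 CPM (1.16) and Krt7 at 808 and 759 (0.09), so Krt7 differed little between these members.

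Interferon genes did not split the members in this way, with a median log2 ratio of -0.22 over 13 genes. Of these, 1 was at least 2-fold higher and 1 at least 2-fold lower, beside 3.41 and 2.08% of all genes. Cxcl10, the higher gene, was at 76.4 CPM in Sprr1a-bearing and 32.7 in Cyp1a1-bearing cells (1.20). Isg15, under 2-fold, was at 41.4 and 63.0 (-0.61).

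Residual cycle transcripts moved with the groups. The gate allowed up to 4 UMIs of Mki67, Top2a and Cenpf, which summed to 44.3 CPM in members, 28.4 in cells with 0, 40.8 in Sprr1a-bearing and 63.8 in Cyp1a1-bearing cells. A share of 52.2% of members and 80.1% of cells with 0 had none of these UMIs, as had 25.9% of Cyp1a1-bearing cells. With the gate tightened to 0 such UMIs, an alternative chosen after the data were seen, 446 members and 1534 comparison cells were left. The count of 2-fold higher genes was then 207, that of lower genes 40, and the interferon median 0.76. Only 15 Cyp1a1-bearing cells remained in that setting, and the AP-1 median of Sprr1a-bearing over Cyp1a1-bearing cells was 0.90.

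Most UMIs of both genes in the library lay outside the members. Cells over the cycle limit held 47.3% of all Sprr1a UMIs and 60.0% of all Cyp1a1 UMIs, and members held 19.1 and 18.4%. Among 2475 cycling cancer cells, Sprr1a was at 378 CPM and Cyp1a1 at 93.6. A total of 1830 of them, 73.9%, had at least 3 UMIs of the pair at a median of 30666.5 UMIs per cell. Aldh1a1 was at 369.7 CPM and Adh7 at 25.7 in all 2475 cycling cells, beside 372 and 22.2 in members. Among 1124 trefoil-positive cells, Sprr1a was at 634 CPM and Cyp1a1 at 18.3, a level that lay below the 135 of members. Members with at least 3 UMIs of Slurp1 and Mt4, which are counted in both groups, numbered 210, or 24.6% of members, beside 15.1% of the shallower cells with 0.

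Leukocytes of the primary tumour, which should lack both genes, gave the background. In 1068 such cells with a median of 2343.5 UMIs, 7.96% had a Sprr1a UMI and 0.936% a Cyp1a1 UMI, at 25.4 and 2.89 CPM. After thinning to 2000 UMIs, which left out 444 of these leukocytes and 4 members, the Sprr1a shares were 5.01% in leukocytes and 59.9% in members, and the Cyp1a1 shares 0.573 and 12.7%. A single leukocyte reached 3 UMIs of the pair. Cells with 1 or 2 UMIs had a thinned Sprr1a share of 24.3%.

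**Figure D5:**
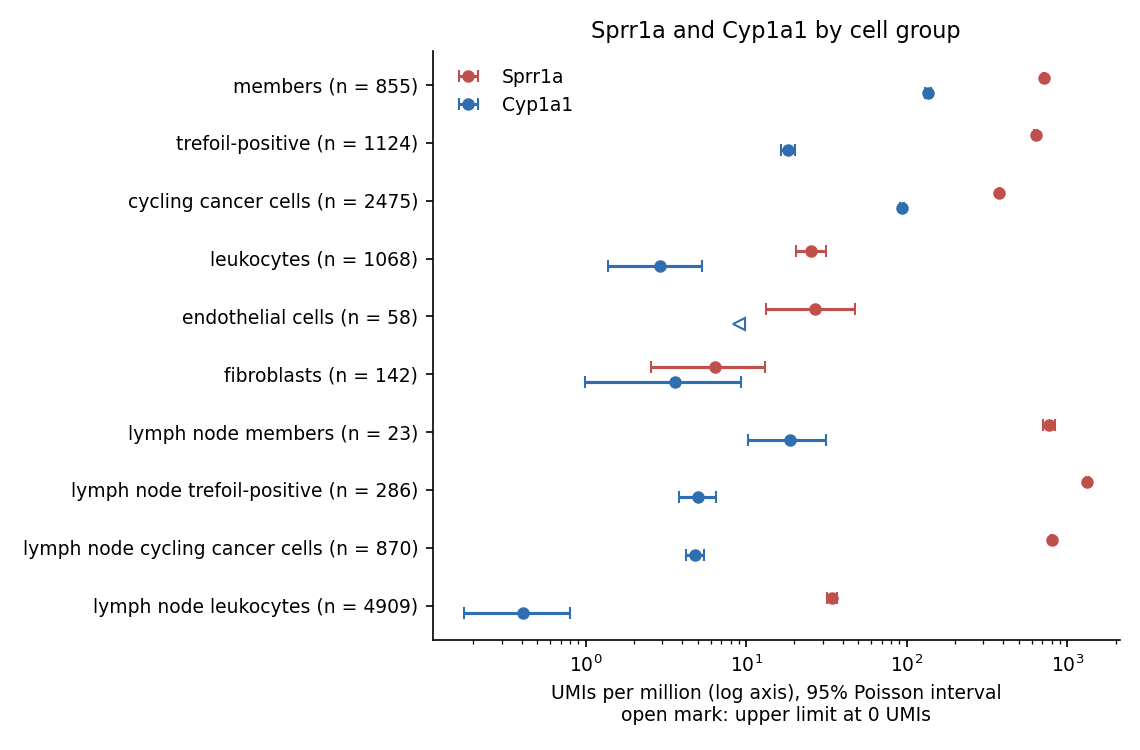
CPM (x axis, log) of Sprr1a and Cyp1a1 in cell groups of the primary tumour and the lymph node (rows, with the number of cells), with 95% Poisson intervals and an open mark for the upper limit where no UMI was seen. The 6 groups of members, trefoil-positive and cycling cancer cells drawn lie between 378 and 1334 CPM for Sprr1a and leukocytes at 25.4 and 34.2.

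In the lymph node the same gate kept 49 cells and the same rule 23 of them, with 14 at 0. These 23 cells had 576 Sprr1a UMIs, 768 CPM (707 to 833), and 14 Cyp1a1 UMIs, 18.7 CPM (10.2 to 31.3). The Sprr1a level was thus close to the 716 of the tumour members, and the Cyp1a1 level below their 135. Krt7 was at 1009 and Aldh1a1 at 276 CPM. The 103 Ccl2 UMIs of these cells came from 4.35% of them, that is from 1 cell. Cyp1a1 was also low in the 870 cycling cancer cells of the lymph node, at 4.82 CPM (4.22 to 5.48), beside 93.6 in those of the tumour, while Sprr1a was at 803 and 378. Tissue, digestion and library differ together between these 2 sets and cannot be told apart.

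Among facts of the libraries, the primary tumour held 173317475 UMIs and the lymph node 122207852, with medians of 9161 and 2630 per cell. The libraries shared 47 cell barcodes, of which 2 were members. Scrublet marked 43 members (5.03%) and 59 cells with 0 (3.08%) as doublets. These were kept, and 36 members but no cell with 0 had over 6000 genes.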

How the data were processed

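Cells of 2 tissues of 6 mice were pooled into 1 library per tissue after enzymatic digestion. The authors deposited matrices of raw UMI counts for 22620 genes, made with Cell Ranger, given as version 2.1.1 in the submitters' processing notes and 5.0.0 in the file header, on GRCm38. The limits on genes per cell and the doublet removal of the study's methods were not applied to these deposited counts. No column was left unassigned.

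Members and gene lists were chosen with earlier results of these data known. Summed UMIs were given as CPM of a group, and log2 ratios used 0.5 UMI added to each sum. A gene was compared with at least 100 UMIs in both groups together and called past 2-fold. Intervals were exact Poisson, Clopper-Pearson or binomial-split at 95%. The genes named were Krt7, Aldh1a1, genes of the lists, and up to 12 on each side of the main contrast, with a UMI in at least 10% of cells of the higher group, no cell with over 10% of its UMIs and past 2-fold the same way after depth weighting in 10 bins. For Sprr1a-bearing against Cyp1a1-bearing members up to 8 a side were named without the weighting, and Egfl7, Col1a2 and Dcn came from marker lists. Genes under 4 UMIs in a group are given with a counting interval, and a group at 0 is set at 3 UMIs. Scrublet (scanpy 1.11.5) served for 1 alternative only. Sums and ratios were computed with pandas 2.3.3 and numpy 2.4.6, intervals with scipy 1.17.1 and plots with matplotlib 3.10.9, under Python 3.11.15, and the ratios were tested on simulated data. Alternatives changed the gate, threshold, doublets, depth, scaling, filter and pseudocount.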

Additional observations from a re-analysis of the deposited data

How the results depend on the processing

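With 1 library per tissue and no map of cells to mice, no value has a replicate error, and the counting intervals leave out variation between mice. Members were deeper than comparison cells, and low genes of the 58 Cyp1a1-bearing cells are imprecise. No paired analysis was possible because each tissue had 1 library. None of the interferon, hypoxia, AP-1 and NRF2 medians changed direction, nor did any of the 18 genes recomputed, which were Krt7, Aldh1a1 and the 16 chosen by the rule for the highest and lowest ratios of members over cells with 0, after its filters on detection, single cells and depth weighting. Other genes named were not recomputed. The cornified-envelope median of 0.18 became -0.03 after centring, and the median of 3 simple epithelium keratins, -0.04, lay between 0.04 and 0.26 in 6 settings. The settings without a cell cycle UMI, with Sprr1a-bearing members only, and all those for Sprr1a-bearing against Cyp1a1-bearing members were chosen after seeing the data, and the cause of each shift was not tested.

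The share of members was 16.8% at a threshold of 6 UMIs, 37.8% in cells with at least 10000 UMIs and 18.6% without a cell cycle UMI. The count of higher genes was 153 after centring, 584 with a minimum of 20 UMIs, 207 without a cell cycle UMI and 176 in Sprr1a-bearing members. The count of lower genes was 102 at 6 UMIs, 33 with depth weighting, 35 at 10000 UMIs, 138 after centring, 222 with a minimum of 20 UMIs and 37 in Sprr1a-bearing members. The interferon median was 0.67 with weighting, 0.76 after centring and 0.76 without a cell cycle UMI. The hypoxia median was -0.47 at 6 UMIs, -0.27 with mean single-cell levels, -0.29 with weighting, -0.59 after centring, -0.25 without a cell cycle UMI and -0.20 in Sprr1a-bearing members. The AP-1 median was -0.50 at 6 UMIs, -0.38 at 200 CPM, -0.21 with weighting, -0.38 at 10000 UMIs, -0.63 after centring, -0.30 without a cell cycle UMI and -0.27 in Sprr1a-bearing members. The NRF2 median was 0.25 with weighting, 0.12 after centring and 0.19 in Sprr1a-bearing members. For Sprr1a-bearing over Cyp1a1-bearing cells, the lower count was 84 with all members of at least 3 Cyp1a1 UMIs, 330 without a cell cycle UMI and 483 with a minimum of 20 UMIs, the higher count was 555 with a minimum of 20 UMIs, and the AP-1 median was 0.90 without a cell cycle UMI. For these 18 genes all 234 values kept their sign, and 206 of 221 for the 17 genes past 2-fold stayed past it.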
